A study of Mus musculus with 18 samples.

Results

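Expression of 39 genes of phosphatidylinositol phosphate metabolism was followed in C2C12 myotubes, out of the 55414 genes of the count table. They were listed by name as lipid kinases, lipid phosphatases and phospholipases C of this pathway, by a rule that uses no measured value but with earlier results of these data known, and all 39 were found in the table. They comprise 4 phosphatidylinositol (PI) 4-kinases, 6 kinases of PI phosphates (PIP kinases), 2 members of the PIKfyve complex, 11 phospholipases C, 10 5-phosphatases, 2 4-phosphatases, 2 Sac-domain phosphatases and 2 myotubularins. The sum of counts over all libraries reached the minimum of 10 for all 39, so each was tested.

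Phosphoinositides are minor membrane lipids whose inositol ring carries phosphates at different positions, and each combination marks particular membranes. PI 4-kinases and PIP kinases build up PIP2, the lipid of the plasma membrane that phospholipases C split into diacylglycerol and IP3, which releases calcium from internal stores. The 5-phosphatases, 4-phosphatases, Sac-domain phosphatases and myotubularins take phosphates off again and so end or redirect the signal, including that of the insulin-dependent PI 3-kinases. In skeletal muscle the pathway is known for calcium release, for the membranes that couple excitation to contraction, and for inherited myopathies caused by loss of the phosphatase MTM1.

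C2C12 cells are an established mouse myoblast line, and they form multinucleate myotubes once serum is reduced. The cells were transfected at confluence with non-targeting siRNA (siNTC), a pool of siRNAs against Erk3 (siErk3; the gene is Mapk6) or a pool against Mk5 (siMk5; the gene is Mapkapk5), and differentiated for 6 days. Serum was then left out for 16 h and either BSA alone or palmitic acid (PA) at 0.5 mM, carried on BSA, was added, which gives 6 groups of 3 libraries (siNTC_BSA, siErk3_BSA, siMk5_BSA, siNTC_Palmitic, siErk3_Palmitic and siMk5_Palmitic). All groups thus share the transfection and the serum-free medium, and the dose and duration of PA were the same in all 3 PA groups. Whether the 3 libraries of a group were separate cultures is not stated, so p-values measure the spread between these libraries, which may be technical.

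The 18 libraries held 13041979 to 28496727 counts. In siErk3 libraries the Mapk6 level fell, with a log2 fold change against siNTC of -1.20 (SE 0.06) in BSA and -0.95 (SE 0.06) in PA. Against BSA, PA raised Mapk6 by 0.81 in siNTC, 1.06 in siErk3 and 0.74 in siMk5 (SE 0.06 in each). Mapkapk5 in siMk5 was at -0.61 in BSA and -0.49 in PA, short of the threshold (adjusted p = 0.469 in each medium), and 56.4% of its exonic bases are shared with the gene model Gm42878. It had 27 to 86 counts per library. For the proteins, the paper reports efficient silencing of both kinases by Western blot. The 10 myotube markers were present in every library, whereas Adgre1, a macrophage marker, had 0 counts and Ptprc, the common leukocyte marker, at most 1. The share of counts on 18S rRNA ranged from 1.497% to 12.9% and was highest in siMk5_BSA (8.39% to 12.9%).

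The sequence upstream of a gene is shown for some of the members that passed both criteria given below with PA in each siRNA background. It is also shown for Plcg2, the only member that passed both in the edgeR test of siErk3 against siNTC. RefSeq promoters, from 250 bases before to 50 bases after the start of transcription, were found for 35 of the 39 members. The 5 shown here were each placed on GRCm39 by a single exact match. They are printed 5′ to 3′ along the strand of the gene, and capitals mark the one searched motif they contained, CACGTG, the E-box core. The 3 genes printed first rose with PA, Plcl1 fell with PA, and Plcg2 rose with siErk3.
Mtm1, chrX:70254123-70254422, plus strand: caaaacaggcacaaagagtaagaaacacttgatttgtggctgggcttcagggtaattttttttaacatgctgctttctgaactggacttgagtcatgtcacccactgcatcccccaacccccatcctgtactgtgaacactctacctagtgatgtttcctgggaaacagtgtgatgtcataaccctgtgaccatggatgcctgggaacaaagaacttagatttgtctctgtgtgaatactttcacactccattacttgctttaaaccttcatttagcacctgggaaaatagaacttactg
Pi4k2a, chr19:42078624-42078923, plus strand: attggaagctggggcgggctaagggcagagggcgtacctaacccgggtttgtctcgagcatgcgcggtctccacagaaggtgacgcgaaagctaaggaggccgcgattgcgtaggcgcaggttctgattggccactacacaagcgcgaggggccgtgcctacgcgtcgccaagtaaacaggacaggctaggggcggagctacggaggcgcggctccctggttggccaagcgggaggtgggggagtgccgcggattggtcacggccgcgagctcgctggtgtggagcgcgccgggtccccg
Pip5k1a, chr3:95014192-95014491, minus strand: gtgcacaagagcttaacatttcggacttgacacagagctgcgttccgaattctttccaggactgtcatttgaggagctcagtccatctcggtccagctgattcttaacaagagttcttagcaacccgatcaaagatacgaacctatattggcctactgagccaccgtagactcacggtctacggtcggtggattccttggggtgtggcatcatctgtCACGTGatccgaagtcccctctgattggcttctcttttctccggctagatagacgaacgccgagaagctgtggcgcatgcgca
Plcl1, chr1:55444855-55445154, plus strand: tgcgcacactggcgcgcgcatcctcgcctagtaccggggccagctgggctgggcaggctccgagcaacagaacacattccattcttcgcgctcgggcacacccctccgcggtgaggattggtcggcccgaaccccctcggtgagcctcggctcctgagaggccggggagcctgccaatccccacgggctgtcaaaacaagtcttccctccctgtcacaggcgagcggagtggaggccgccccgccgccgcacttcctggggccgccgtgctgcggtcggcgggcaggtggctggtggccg
Plcg2, chr8:118224764-118225063, plus strand: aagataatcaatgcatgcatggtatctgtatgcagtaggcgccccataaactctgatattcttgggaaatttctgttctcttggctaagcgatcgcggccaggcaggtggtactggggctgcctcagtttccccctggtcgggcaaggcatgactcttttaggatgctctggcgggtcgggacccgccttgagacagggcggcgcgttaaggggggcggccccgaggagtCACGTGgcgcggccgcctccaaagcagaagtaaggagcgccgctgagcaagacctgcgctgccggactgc
CACGTG reads the same on both strands. It was present in 3 of the 35 member promoters, at position -33 from the start in Pip5k1a, -145 in Pip5k1c and -20 in Plcg2, against 7.15% of the 32851 promoters of the table. The other motif searched, TGATGNAA on both strands, the form bound by ATF4 with C/EBP proteins, was present in 1 of the 35, at position -100 in Synj2, against 3.97% of all promoters. The printed promoters of Mtm1, Pi4k2a and Plcl1 held neither motif. A match here is a description of the letters in this window, and no binding was measured.

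Levels per length are given as RPKM, the TMM-scaled CPM (counts scaled to a common library size) divided by the exonic kilobases of the gene. Over the 18 libraries, 33 of the 39 members had a median above 1 RPKM. The highest median of each class was 17.6 RPKM for Pi4kb, 22.1 for Pip4k2b, 13.5 for Fig4, 12.9 for Plcb3, 48.7 for Inppl1, 3.60 for Inpp4b, 23.2 for Sacm1l and 12.4 for Mtmr2. Inppl1, which encodes SHIP2, the 5-phosphatase that acts on the product of PI 3-kinase, was thus the most abundant transcript of the 39 per length. Its relative Inpp5d, which encodes SHIP1 and is known from blood cells, was at a median of 0.139 RPKM. Plcd4, Plce1 and Pip5k1b never reached 20 counts in a library. Pip5k1b had 0 counts in 2 libraries, where a limit of 3 counts allows up to 0.211 CPM in siNTC_BSA replicate 1 and 0.152 CPM in siNTC_Palmitic replicate 3. Such limits cover counting error alone.

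**Figure D1:**
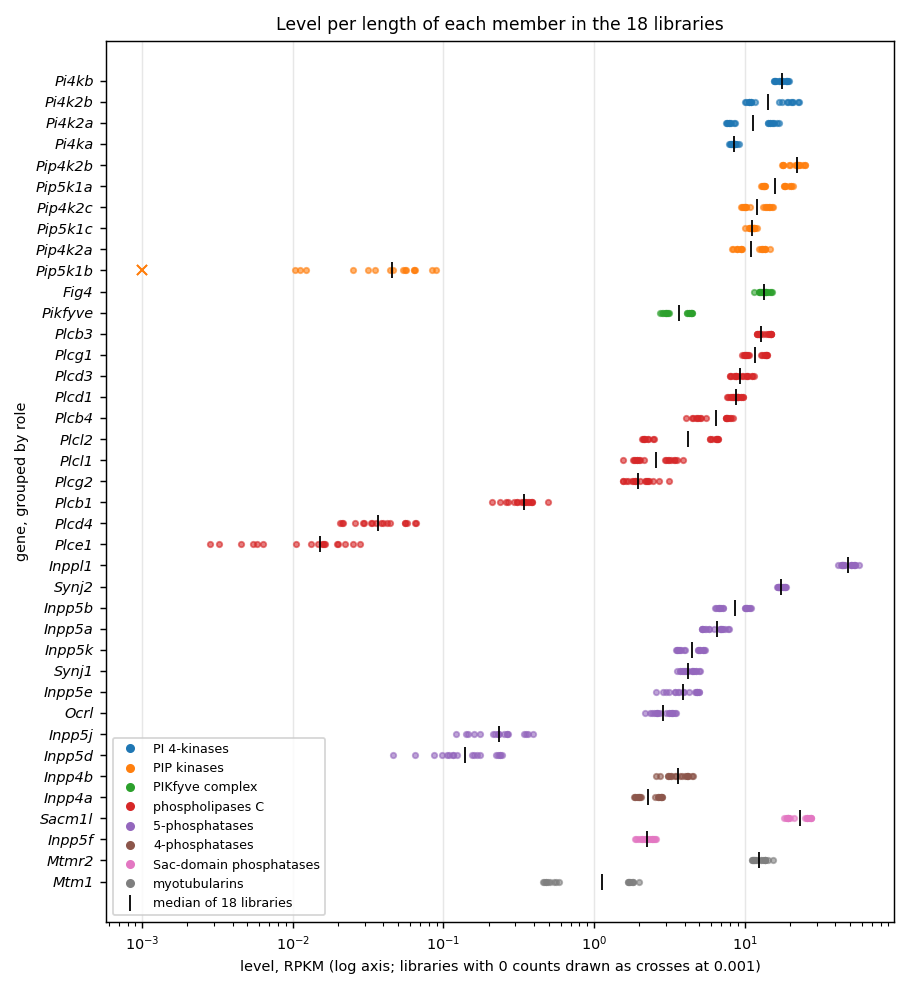
Level of each of the 39 members in RPKM (log axis), with 1 point per library (n = 18), colour by class and a black tick at the median; crosses mark libraries with 0 counts. Inppl1 lies highest with a median of 48.7 RPKM, and Plcd4, Plce1 and Pip5k1b lie below 0.1 RPKM in all libraries.

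The first question was how PA, a saturated fatty acid given as lipid overload, altered these mRNAs in each siRNA background. A gene was called when its adjusted p (Benjamini-Hochberg over all genes tested, edgeR quasi-likelihood test) was below 0.05 and its fold change above 1.3. With PA, 19 members were called in siNTC (10 higher and 9 lower, 48.7% of 39, against 30.6% of all genes tested), 20 in siErk3 (9 higher and 11 lower, 51.3% against 32.1%) and 18 in siMk5 (9 higher and 9 lower, 46.2% against 29.7%). Higher calls made up 15.5%, 15.8% and 15.1% of all genes, and lower calls 15.1%, 16.3% and 14.6%. By adjusted p alone, 27, 29 and 29 members passed, against 45.1%, 47.1% and 44.3% of all genes. The median log2 fold change of the 39 was -0.11, -0.19 and -0.16, beside -0.03, -0.01 and -0.01 over all genes. The groups did not overlap for 28, 33 and 33 members, where 51.3%, 53.9% and 51.9% of all genes did not. The 3 comparisons use separate libraries. The shares over all genes were not matched to the members for level. They cover 21772 genes with at least 10 counts in total, of which filterByExpr, a stricter count filter, kept 15040. Of the 39 members, 33 had a median above 1 RPKM. The part of expression level in these differences was not tested.

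Across the 3 siRNA backgrounds 9 members were called higher in each (12% of all genes were) and 6 lower in each (10.8% of all genes). Every class with a kinase contributed to the 9 that rose, namely Pi4k2a and Pi4k2b, Pip5k1a and Pip4k2c, and Pikfyve. The others that rose were Plcl2, Inpp5b, Sacm1l and Mtm1. Those that fell were Pip4k2a, the phospholipases Plcb4, Plcg1 and Plcl1, and the phosphatases Inpp5k and Inpp4a. For each of these 15 the BSA and PA libraries did not overlap in any siRNA background. Another 8 members were called in 1 or 2 backgrounds and 16 in none.

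Markers of other cell states moved with PA as well. Their summed levels are CPM of the library total without TMM scaling, unlike the CPM of the members. The TMM factors of the 18 libraries ran from 0.938 to 1.09. The summed level of 5 markers of proliferating or reserve myoblasts was 815 to 902 CPM in the 9 BSA libraries and 323 to 428 CPM in the 9 PA libraries, and 4 of the 5 fell in each siRNA background. That of 4 fibroblast markers, whose collagen genes myoblasts also express, was 3960 to 5164 CPM against 1631 to 2383 CPM, and all 4 fell in each background. Summed myotube markers were at 12446 to 16436 CPM with BSA and 11815 to 13480 CPM with PA, and 4 of the 10 fell in siNTC and 1 each in siErk3 and siMk5. Leukocyte markers summed to 0.704 to 1.87 CPM with BSA and 1.40 to 2.02 CPM with PA, and of the 2 tested, 1 was called higher in siMk5 and none in the other backgrounds. The 3 endothelial markers summed to 0.127 to 0.815 CPM with BSA and 0.303 to 1.12 CPM with PA, and 1 was called higher in siErk3 and in siMk5. Their part in the results that follow was not tested, and in RNA from whole cultures fewer cells of a type and less RNA per cell cannot be told apart.

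**Figure D2:**
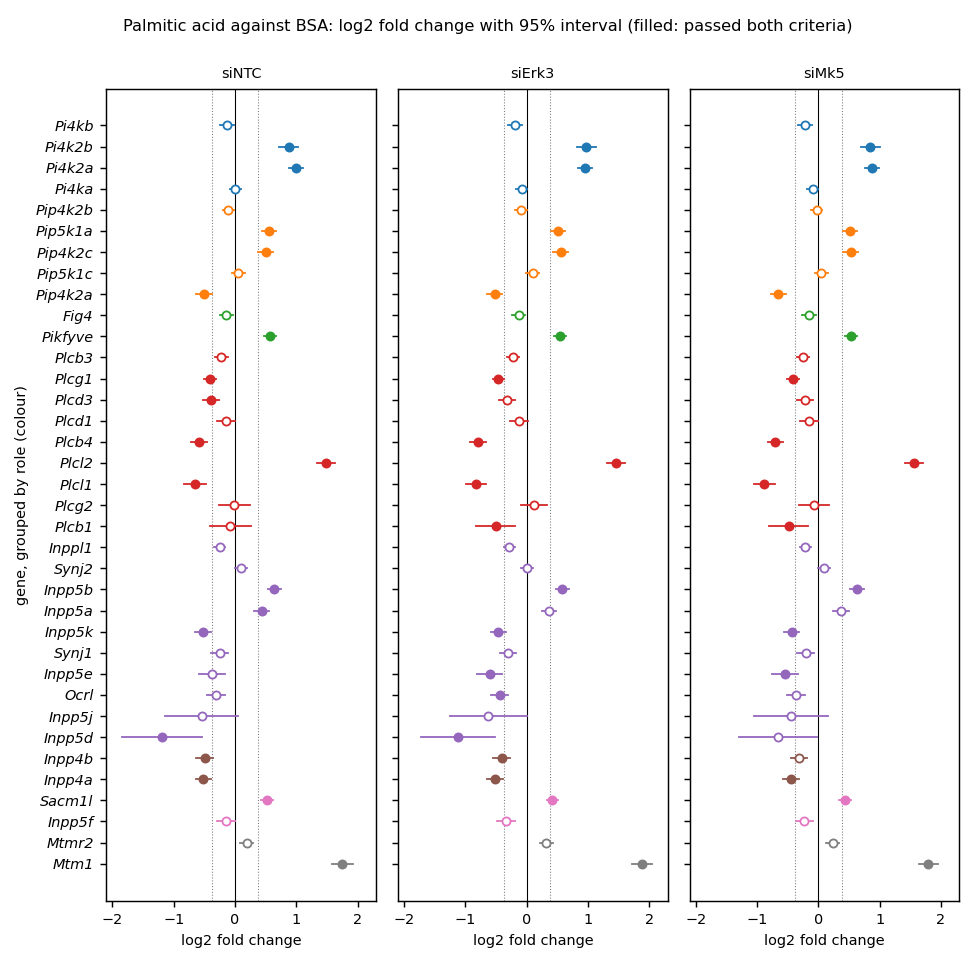
Log2 fold change of PA against BSA in siNTC, siErk3 and siMk5 myotubes (3 libraries against 3) for 36 members, with 95% intervals from the edgeR fit; filled points passed both criteria, dotted lines mark a 1.3-fold change, and Plcd4, Plce1 and Pip5k1b are left out for their low counts. Mtm1 and Plcl2 lie farthest to the right in all panels, at 1.75 to 1.88 and 1.46 to 1.56.

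Among the myotubularins, which remove the phosphate at the 3-position, PA raised Mtm1, the gene of X-linked myotubular myopathy. In CPM, Mtm1 stood at 8.15, 6.46 and 6.71 in siNTC, 6.72, 6.41 and 6.87 in siErk3, and 7.76, 7.10 and 7.53 in siMk5 with BSA. PA libraries held Mtm1 at 23.5, 23.9 and 23.3 in siNTC, 23.9, 25.4 and 24.3 in siErk3, and 25.03, 27.5 and 25.3 in siMk5. Every PA library exceeded every BSA library by a wide margin. Mtm1 rose by a log2 fold change of 1.75 (SE 0.08) in siNTC, 1.88 (SE 0.08) in siErk3 and 1.80 (SE 0.08) in siMk5, with adjusted p-values of 1.65e-17, 7.12e-19 and 4.6e-18. Mtmr2, a relative mutated in a demyelinating neuropathy, remained below the fold change limit. In CPM, Mtmr2 stood at 57.04, 56.01 and 58.3 in siNTC, 54.7, 57.1 and 59.1 in siErk3, and 54.8, 57.9 and 55.8 in siMk5 with BSA. PA libraries held Mtmr2 at 66.9, 64.9 and 63.1 in siNTC, 76.1, 66.99 and 70.5 in siErk3, and 67.3, 66.9 and 63.4 in siMk5. PA values of Mtmr2 lay above the BSA values in each background, with log2 fold changes of 0.19 (SE 0.05) in siNTC, 0.32 (SE 0.05) in siErk3 and 0.23 (SE 0.05) in siMk5, with adjusted p-values of 0.00355, 2.87e-06 and 0.000414.

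PI 4-kinases make PI4P, the first step toward PIP2. The type II enzymes, which sit on endosomes and the Golgi, were higher with PA in each background, whereas neither type III enzyme was called. For the first of them, Pi4k2a stood at 50.3, 50.7 and 52.96 in siNTC, 52.8, 54.5 and 56.7 in siErk3, and 53.3, 57.3 and 51.4 in siMk5 with BSA. PA libraries held Pi4k2a at 95.02, 103 and 109 in siNTC, 112, 105.1 and 98.3 in siErk3, and 102, 95.5 and 99.02 in siMk5. These values left a gap between 57.3 and 95.02 CPM. Pi4k2a rose by a log2 fold change of 0.99 (SE 0.06) in siNTC, 0.94 (SE 0.06) in siErk3 and 0.87 (SE 0.06) in siMk5, with adjusted p-values of 2.98e-15, 3.71e-15 and 4.99e-14. For the second, Pi4k2b stood at 38.3, 40.2 and 40.1 in siNTC, 38.03, 41.5 and 41.2 in siErk3, and 40.2, 43.8 and 41.3 in siMk5 with BSA. PA libraries held Pi4k2b at 66.9, 72.8 and 78.02 in siNTC, 85.6, 78.9 and 72.1 in siErk3, and 84.6, 76.03 and 63.9 in siMk5. The PA libraries were more scattered than the BSA libraries but did not reach down to them. Pi4k2b rose by a log2 fold change of 0.87 (SE 0.08) in siNTC, 0.97 (SE 0.07) in siErk3 and 0.84 (SE 0.08) in siMk5, with adjusted p-values of 4.38e-11, 1.61e-12 and 6.88e-11. Among type III enzymes, Pi4kb stood at 67.3, 72.5 and 74.6 in siNTC, 74.9, 69.1 and 73.8 in siErk3, and 68.9, 72.7 and 76.4 in siMk5 with BSA. PA libraries held Pi4kb at 69.2, 65.5 and 61.3 in siNTC, 62.3, 61.2 and 67.8 in siErk3, and 60.3, 60.7 and 65.99 in siMk5. Pi4kb gave log2 fold changes of -0.13 (SE 0.06) in siNTC, -0.19 (SE 0.06) in siErk3 and -0.22 (SE 0.06) in siMk5, with adjusted p-values of 0.0646, 0.00571 and 0.00192, all short of 1.3-fold. Pi4ka ranged from 88.6 to 103 CPM over the 18 libraries, with log2 fold changes of 0.01 (SE 0.05) in siNTC, -0.08 (SE 0.04) in siErk3 and -0.09 (SE 0.05) in siMk5, with adjusted p-values of 0.948, 0.144 and 0.107.

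**Figure D3:**
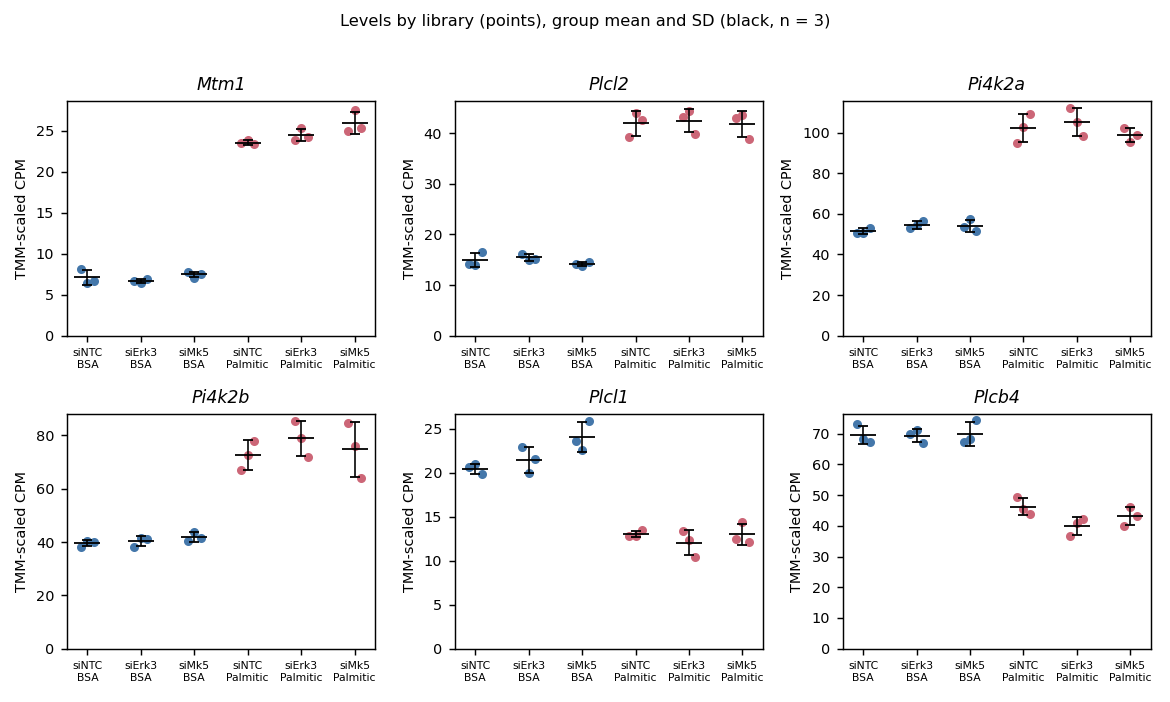
TMM-scaled CPM (axes from 0) of Mtm1, Plcl2, Pi4k2a, Pi4k2b, Plcl1 and Plcb4 in each of the 18 libraries (points, blue for BSA and red for PA), with group means and SD in black (n = 3). For all 6 genes the BSA and PA points are separate, upward for the first 4 and downward for Plcl1 and Plcb4.

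PIP kinases turn PI4P or PI5P into PIP2, and their members split with PA. Pip5k1a, a PI4P 5-kinase of the plasma membrane, rose. In CPM, Pip5k1a stood at 56.1, 58.1 and 58.9 in siNTC, 57.7, 59.9 and 59.3 in siErk3, and 56.8, 58.8 and 60.2 in siMk5 with BSA. PA libraries held Pip5k1a at 79.8, 85.9 and 88.4 in siNTC, 91.2, 80.999 and 79.8 in siErk3, and 89.2, 81.1 and 81.6 in siMk5. Its PA values were at least 79.8 CPM, while its BSA values stayed at or below 60.2 CPM. Pip5k1a changed by a log2 fold change of 0.55 (SE 0.06) in siNTC, 0.51 (SE 0.05) in siErk3 and 0.52 (SE 0.05) in siMk5, with adjusted p-values of 6.32e-10, 1.66e-09 and 1.85e-09. Among the PI5P 4-kinases, Pip4k2c rose, Pip4k2a fell and Pip4k2b was not called. For the gamma form, Pip4k2c stood at 55.8, 54.5 and 55.8 in siNTC, 54.9, 52.1 and 53.9 in siErk3, and 52.9, 51.8 and 58.97 in siMk5 with BSA. PA libraries held Pip4k2c at 74.6, 77.3 and 82.4 in siNTC, 84.6, 79.1 and 72.1 in siErk3, and 80.5, 78.8 and 75.9 in siMk5. Pip4k2c rose by a log2 fold change of 0.50 (SE 0.06) in siNTC, 0.55 (SE 0.06) in siErk3 and 0.52 (SE 0.06) in siMk5, with adjusted p-values of 1.27e-08, 8.39e-10 and 3.96e-09. For the alpha form, Pip4k2a stood at 47.2, 43.6 and 45.1 in siNTC, 44.7, 47.1 and 47.3 in siErk3, and 45.05, 46.2 and 50.8 in siMk5 with BSA. PA libraries held Pip4k2a at 33.5, 32.8 and 29.1 in siNTC, 31.01, 32.8 and 32.95 in siErk3, and 30.7, 30.9 and 28.7 in siMk5. The highest PA value was 33.5 CPM and the lowest BSA value 43.6 CPM. Pip4k2a changed by a log2 fold change of -0.51 (SE 0.06) in siNTC, -0.52 (SE 0.06) in siErk3 and -0.65 (SE 0.06) in siMk5, with adjusted p-values of 3.42e-08, 8.07e-09 and 1.99e-10. For Pip4k2b the log2 fold changes were -0.11 (SE 0.05) in siNTC, -0.10 (SE 0.05) in siErk3 and -0.03 (SE 0.05) in siMk5, with adjusted p-values of 0.0433, 0.0848 and 0.647. Pip5k1c ranged from 57.5 to 68.7 CPM over all libraries, with log2 fold changes of 0.05, 0.10 and 0.05, and Pip5k1b had too few counts for a statement.

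PIKfyve makes the doubly phosphorylated lipid of late endosomes and lysosomes, and Fig4 is the phosphatase that sits in the same complex. PA raised Pikfyve but not Fig4. In CPM, Pikfyve stood at 57.3, 52.3 and 54.1 in siNTC, 58.3, 56.4 and 59.6 in siErk3, and 57.8, 54.7 and 60.6 in siMk5 with BSA. PA libraries held Pikfyve at 79.4, 81.5 and 81.8 in siNTC, 85.5, 85.2 and 84.4 in siErk3, and 85.9, 84.5 and 80.1 in siMk5. The BSA values ended at 60.6 CPM and the PA values began at 79.4 CPM. Pikfyve rose by a log2 fold change of 0.57 (SE 0.05) in siNTC, 0.55 (SE 0.05) in siErk3 and 0.53 (SE 0.05) in siMk5, with adjusted p-values of 2.91e-11, 2.98e-11 and 9.97e-11. For its partner, Fig4 stood at 45.1, 42.4 and 44.9 in siNTC, 46.6, 45.8 and 48.01 in siErk3, and 49.6, 49.2 and 45.3 in siMk5 with BSA. PA libraries held Fig4 at 38.1, 41.1 and 40.8 in siNTC, 43.1, 43.9 and 41.3 in siErk3, and 41.6, 42.7 and 45.3 in siMk5. Fig4 gave log2 fold changes of -0.14 (SE 0.06) in siNTC, -0.13 (SE 0.05) in siErk3 and -0.16 (SE 0.05) in siMk5, with adjusted p-values of 0.0397, 0.0442 and 0.0187, which passed the adjusted p alone.

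The phospholipases C were the class with most members. With PA, 4 of the 11 were called lower and 1 higher in siNTC and in siErk3. In siMk5, 5 were called lower and 1 higher. Over all genes, lower calls made up 15.1% in siNTC, 16.3% in siErk3 and 14.6% in siMk5, and higher calls 15.5%, 15.8% and 15.1%. Plcb4, Plcg1 and Plcl1 were lower in each background. Plcd3 was called lower in siNTC alone, Plcb1 in siErk3 and siMk5, and Plce1 in siMk5 alone. The 1 that rose was Plcl2, which with Plcl1 forms the phospholipase C-like proteins that bind IP3 but do not cleave PIP2. In CPM, Plcl2 stood at 14.2, 14.002 and 16.5 in siNTC, 16.2, 15.01 and 15.2 in siErk3, and 14.2, 13.8 and 14.5 in siMk5 with BSA. PA libraries held Plcl2 at 39.3, 43.96 and 42.6 in siNTC, 43.1, 44.3 and 39.9 in siErk3, and 43.01, 43.6 and 38.8 in siMk5. No BSA library exceeded 16.5 CPM and no PA library fell under 38.8 CPM. Plcl2 rose by a log2 fold change of 1.49 (SE 0.07) in siNTC, 1.46 (SE 0.07) in siErk3 and 1.56 (SE 0.07) in siMk5, with adjusted p-values of 4.18e-17, 1.96e-17 and 1.44e-17. Plcl1 moved the other way. In CPM, Plcl1 stood at 20.7, 20.96 and 19.9 in siNTC, 22.9, 19.9 and 21.5 in siErk3, and 23.6, 22.6 and 25.9 in siMk5 with BSA. PA libraries held Plcl1 at 12.8, 12.9 and 13.4 in siNTC, 13.4, 12.3 and 10.5 in siErk3, and 12.5, 14.4 and 12.2 in siMk5. Its PA values, up to 14.4 CPM, lay under all BSA values. Plcl1 changed by a log2 fold change of -0.65 (SE 0.09) in siNTC, -0.83 (SE 0.08) in siErk3 and -0.88 (SE 0.08) in siMk5, with adjusted p-values of 1.23e-07, 4.98e-10 and 1.94e-10.

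Plcb4, an enzyme driven by Gq-coupled receptors, fell with PA. In CPM, Plcb4 stood at 73.1, 68.3 and 67.4 in siNTC, 70.01, 71.3 and 67.01 in siErk3, and 67.2, 68.3 and 74.5 in siMk5 with BSA. PA libraries held Plcb4 at 49.4, 45.4 and 43.96 in siNTC, 36.7, 41.01 and 42.4 in siErk3, and 40.05, 45.98 and 43.2 in siMk5. The libraries of BSA and PA were separated by the interval from 49.4 to 67.01 CPM. Plcb4 changed by a log2 fold change of -0.59 (SE 0.06) in siNTC, -0.79 (SE 0.06) in siErk3 and -0.70 (SE 0.06) in siMk5, with adjusted p-values of 1.57e-09, 1.47e-12 and 3.94e-11. Plcg1, the enzyme recruited by receptor tyrosine kinases, fell less. In CPM, Plcg1 stood at 102, 109.5 and 108 in siNTC, 111, 106 and 111 in siErk3, and 103, 107 and 109 in siMk5 with BSA. PA libraries held Plcg1 at 82.2, 80.4 and 78.2 in siNTC, 78.04, 79.1 and 81.04 in siErk3, and 75.2, 80.4 and 83.7 in siMk5. The PA values ended at 83.7 CPM, below the lowest BSA value of 102 CPM. Plcg1 changed by a log2 fold change of -0.41 (SE 0.05) in siNTC, -0.46 (SE 0.05) in siErk3 and -0.41 (SE 0.05) in siMk5, with adjusted p-values of 1.39e-08, 7.43e-10 and 1.13e-08. With the 18S share as a covariate the siMk5 value of Plcg1 was -0.37, under the fold change limit.

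Plcb3, the most abundant of the class per length, was lower in every PA library than in every BSA library of its background but did not reach 1.3-fold. In CPM, Plcb3 stood at 91.5, 104 and 104.7 in siNTC, 101, 95.8 and 103 in siErk3, and 99.9, 104.6 and 104 in siMk5 with BSA. PA libraries held Plcb3 at 87.1, 86.9 and 84.2 in siNTC, 83.4, 88.2 and 84.6 in siErk3, and 86.4, 85.2 and 88.3 in siMk5. Plcb3 gave log2 fold changes of -0.22 (SE 0.05) in siNTC, -0.23 (SE 0.05) in siErk3 and -0.25 (SE 0.05) in siMk5, with adjusted p-values of 0.000373, 0.000226 and 8.97e-05. Plcd3, a calcium-regulated form, was called in siNTC. In CPM, Plcd3 stood at 35.5, 39.13 and 37.97 in siNTC, 35.2, 34.96 and 34.7 in siErk3, and 33.2, 32.5 and 38.02 in siMk5 with BSA. PA libraries held Plcd3 at 29.3, 27.7 and 29.6 in siNTC, 26.9, 27.2 and 29.8 in siErk3, and 29.5, 28.7 and 31.1 in siMk5. Plcd3 gave log2 fold changes of -0.39 (SE 0.06) in siNTC, -0.32 (SE 0.06) in siErk3 and -0.22 (SE 0.06) in siMk5, with adjusted p-values of 6.88e-06, 5.72e-05 and 0.00578, and without siNTC_BSA replicate 2 the siNTC value was -0.37, short of the fold change limit. Plcd1 ranged from 23.5 to 30.2 CPM and was not called, with log2 fold changes of -0.15, -0.13 and -0.15.

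Plcb1 and Plce1 were called in fewer backgrounds and rest on low counts. In CPM, Plcb1 stood at 3.79, 3.92 and 3.64 in siNTC, 4.06, 4.30 and 3.86 in siErk3, and 4.10, 4.23 and 5.47 in siMk5 with BSA. PA libraries held Plcb1 at 4.32, 3.42 and 2.98 in siNTC, 2.89, 3.26 and 2.33 in siErk3, and 2.65, 3.77 and 3.41 in siMk5. The groups overlapped in siNTC and not in siErk3 or siMk5. Plcb1 gave log2 fold changes of -0.08 (SE 0.16) in siNTC, -0.51 (SE 0.16) in siErk3 and -0.49 (SE 0.16) in siMk5, with adjusted p-values of 0.753, 0.00798 and 0.0122. Its siErk3 call was lost with the 18S share as a covariate (-0.34, adjusted p = 0.197). The siMk5 call of Plcb1 was lost without siMk5_BSA replicate 3 (-0.35, adjusted p = 0.107) and without siMk5_Palmitic replicate 1 (-0.36, adjusted p = 0.0959). Plce1, whose product binds Ras, had 6, 8 and 5 counts in siMk5_BSA and 1, 2 and 1 in siMk5_Palmitic, a ratio of summed counts per summed library size of 0.208 with an exact interval of 0.0513 to 0.624 for counting error. Its log2 fold change in siMk5 was -2.17 (SE 0.74, adjusted p = 0.0161), and without siMk5_BSA replicate 2 or siMk5_Palmitic replicate 1 the adjusted p was 0.0652 and 0.0585. With the 18S share as a covariate it was 0.111. In siNTC and siErk3 the log2 fold changes of Plce1 were 0.08 (SE 0.59, adjusted p = 0.944) and -0.49 (SE 0.57, adjusted p = 0.525).

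Of the 10 5-phosphatases, PA raised Inpp5b in each background and lowered Inpp5k in each. Inpp5b acts on PIP2 of endosomes and is closely related to Ocrl, the gene of Lowe syndrome. In CPM, Inpp5b stood at 30.2, 31.4 and 31.8 in siNTC, 33.3, 32.3 and 33.2 in siErk3, and 29.4, 31.7 and 31.1 in siMk5 with BSA. PA libraries held Inpp5b at 47.96, 50.5 and 47.5 in siNTC, 46.8, 51.3 and 49.6 in siErk3, and 46.6, 48.5 and 47.6 in siMk5. The BSA values did not exceed 33.3 CPM and the PA values began at 46.6 CPM. Inpp5b rose by a log2 fold change of 0.64 (SE 0.05) in siNTC, 0.58 (SE 0.05) in siErk3 and 0.63 (SE 0.05) in siMk5, with adjusted p-values of 1.64e-11, 5.63e-11 and 2.28e-11. For Ocrl, Ocrl stood at 29.9, 30.05 and 28.4 in siNTC, 31.1, 32.8 and 31.3 in siErk3, and 30.7, 33.1 and 31.5 in siMk5 with BSA. PA libraries held Ocrl at 23.8, 25.2 and 22.3 in siNTC, 20.8, 24.4 and 24.96 in siErk3, and 23.1, 24.6 and 26.2 in siMk5. Ocrl gave log2 fold changes of -0.31 (SE 0.07) in siNTC, -0.44 (SE 0.07) in siErk3 and -0.37 (SE 0.07) in siMk5, with adjusted p-values of 0.000481, 1.68e-06 and 4.12e-05 and was called in siErk3. Inpp5k encodes SKIP, a phosphatase abundant in muscle that counters insulin signalling. In CPM, Inpp5k stood at 30.6, 30.4 and 30.2 in siNTC, 28.2, 28.5 and 28.3 in siErk3, and 31.05, 29.03 and 28.8 in siMk5 with BSA. PA libraries held Inpp5k at 22.5, 20.6 and 20.3 in siNTC, 20.1, 21.1 and 20.2 in siErk3, and 21.3, 21.6 and 22.96 in siMk5. All PA values of Inpp5k were at or below 22.96 CPM, under the lowest BSA value of 28.2 CPM. Inpp5k changed by a log2 fold change of -0.52 (SE 0.06) in siNTC, -0.47 (SE 0.06) in siErk3 and -0.44 (SE 0.06) in siMk5, with adjusted p-values of 1.71e-08, 7.88e-08 and 3.89e-07.

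Inpp5a, which ends the signal by dephosphorylating soluble IP3, was higher with PA and passed both criteria in siNTC. In CPM, Inpp5a stood at 29.4, 29.4 and 29.8 in siNTC, 31.1, 32.6 and 35.4 in siErk3, and 32.6, 29.3 and 30.9 in siMk5 with BSA. PA libraries held Inpp5a at 40.5, 38.9 and 40.1 in siNTC, 44.5, 43.5 and 39.4 in siErk3, and 39.2, 41.7 and 39.01 in siMk5. Inpp5a gave log2 fold changes of 0.43 (SE 0.06) in siNTC, 0.36 (SE 0.06) in siErk3 and 0.37 (SE 0.06) in siMk5, with adjusted p-values of 6.82e-07, 4.77e-06 and 7.34e-06. Inpp5e, a ciliary phosphatase, was called lower in siErk3 and siMk5. In CPM, Inpp5e stood at 16.9, 20.6 and 20.4 in siNTC, 18.4, 21.3 and 20.9 in siErk3, and 19.97, 20.6 and 21.5 in siMk5 with BSA. PA libraries held Inpp5e at 16.7, 15.9 and 12.3 in siNTC, 11.04, 13.4 and 15.5 in siErk3, and 12.9, 14.8 and 14.9 in siMk5. The siNTC libraries came close to each other, at 16.7 CPM with PA and 16.9 CPM with BSA, without overlap. Inpp5e gave log2 fold changes of -0.38 (SE 0.11) in siNTC, -0.61 (SE 0.10) in siErk3 and -0.54 (SE 0.11) in siMk5, with adjusted p-values of 0.00379, 9.26e-06 and 7e-05. Inpp5d was called lower in siNTC and siErk3, from at most 43 counts in a library. In CPM, Inpp5d stood at 1.76, 1.71 and 1.28 in siNTC, 1.82, 1.81 and 1.32 in siErk3, and 1.88, 1.21 and 0.929 in siMk5 with BSA. PA libraries held Inpp5d at 0.495, 1.19 and 0.354 in siNTC, 0.657, 0.832 and 0.744 in siErk3, and 0.809, 0.885 and 0.877 in siMk5. Inpp5d gave log2 fold changes of -1.19 (SE 0.32) in siNTC, -1.12 (SE 0.29) in siErk3 and -0.66 (SE 0.31) in siMk5, with adjusted p-values of 0.0026, 0.00185 and 0.0874.

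The remaining 5-phosphatases, Inppl1, Synj1, Synj2 and Inpp5j, passed in no background. For the most abundant member, Inppl1 stood at 327, 332 and 346 in siNTC, 344, 342 and 365 in siErk3, and 325, 339.8 and 325 in siMk5 with BSA. PA libraries held Inppl1 at 267, 288 and 292 in siNTC, 298, 284 and 278 in siErk3, and 288, 284 and 282 in siMk5. Inppl1 was lower in every PA library, with log2 fold changes of -0.25 (SE 0.04) in siNTC, -0.29 (SE 0.04) in siErk3 and -0.21 (SE 0.04) in siMk5, with adjusted p-values of 2.11e-05, 1.68e-06 and 0.000149, below the 1.3-fold limit. The synaptojanins, which serve vesicle uncoating, gave log2 fold changes of -0.25, -0.31 and -0.21 for Synj1 and 0.10, 0.01 and 0.09 for Synj2. Inpp5j was at 0.615 to 2.01 CPM, with log2 fold changes of -0.55 (SE 0.29) in siNTC, -0.63 (SE 0.31) in siErk3 and -0.45 (SE 0.29) in siMk5, with adjusted p-values of 0.136, 0.097 and 0.232.

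The 4-phosphatases remove a phosphate from the lipid left when 5-phosphatases act on the product of PI 3-kinase, and each was lower with PA. In CPM, Inpp4a stood at 28.03, 29.3 and 27.7 in siNTC, 29.1, 28.8 and 28.8 in siErk3, and 29.3, 26.4 and 27.7 in siMk5 with BSA. PA libraries held Inpp4a at 20.2, 19.9 and 19.5 in siNTC, 20.7, 19.5 and 20.5 in siErk3, and 21.3, 19.2 and 20.9 in siMk5. The PA values reached 21.3 CPM and the BSA values began at 26.4 CPM. Inpp4a changed by a log2 fold change of -0.51 (SE 0.06) in siNTC, -0.52 (SE 0.06) in siErk3 and -0.44 (SE 0.06) in siMk5, with adjusted p-values of 3.62e-08, 1.44e-08 and 5.36e-07. For the other form, Inpp4b stood at 54.7, 48.5 and 52.4 in siNTC, 53.7, 53.8 and 58.4 in siErk3, and 59.1, 49.8 and 54.8 in siMk5 with BSA. PA libraries held Inpp4b at 40.4, 35.9 and 33.6 in siNTC, 42.04, 40.8 and 42.4 in siErk3, and 41.04, 45.2 and 45.5 in siMk5. Inpp4b gave log2 fold changes of -0.49 (SE 0.07) in siNTC, -0.41 (SE 0.07) in siErk3 and -0.32 (SE 0.07) in siMk5, with adjusted p-values of 3.57e-07, 3.83e-06 and 0.000199, and passed both criteria in siNTC and siErk3. In siErk3 the call was lost without siErk3_BSA replicate 3 (-0.38, just under the fold change limit) and with the 18S share as a covariate (-0.32).

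Of the Sac-domain phosphatases, PA raised Sacm1l, the enzyme of the endoplasmic reticulum that turns PI4P back into PI. In CPM, Sacm1l stood at 72.1, 67.7 and 72.2 in siNTC, 70.8, 72.8 and 72.02 in siErk3, and 74.5, 71.6 and 79.3 in siMk5 with BSA. PA libraries held Sacm1l at 103, 96.8 and 103 in siNTC, 94.03, 97.6 and 96.8 in siErk3, and 101, 103 and 101 in siMk5. BSA values ended at 79.3 CPM and PA values began at 94.03 CPM. Sacm1l rose by a log2 fold change of 0.52 (SE 0.05) in siNTC, 0.42 (SE 0.05) in siErk3 and 0.43 (SE 0.05) in siMk5, with adjusted p-values of 8.07e-11, 3.68e-09 and 2.97e-09. Inpp5f, which acts on PI4P of endosomes, ranged from 15.7 to 21.4 CPM and was not called, with log2 fold changes of -0.15 (SE 0.07) in siNTC, -0.34 (SE 0.07) in siErk3 and -0.23 (SE 0.07) in siMk5, with adjusted p-values of 0.0917, 0.000103 and 0.0074; 3.41% of its exonic bases are shared with another gene model.

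Whether silencing altered the PA response was tested by the interactions, and no member passed in either (0 of 39 with edgeR and 0 with DESeq2, against 0.0367% of all genes for siErk3 and 0.211% for siMk5). DESeq2 gave no adjusted p for 11 of the 39 in the siErk3 interaction and 5 in the siMk5 interaction, so those could not pass there. At an unadjusted edgeR p under 0.05 there was 1 member in each interaction. Plcb4 differed by -0.21 (95% interval -0.38 to -0.03) between siErk3 and siNTC, with an adjusted p of 0.723. Plce1 differed by -2.25 (95% interval -4.22 to -0.29) between siMk5 and siNTC, with an adjusted p of 0.608. For the members called in some backgrounds alone, the interaction intervals included 0 in siErk3 for all 8 and in siMk5 for all but Plce1. Examples are Plcb1 with -0.43 (95% interval -0.89 to 0.03) for siErk3 and Inpp5d with 0.52 (95% interval -0.40 to 1.45) for siMk5. The calls that differ between backgrounds are therefore not shown to differ in size.

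The neighbouring steps of the pathway were read from 4 lists, of which 72 of 82 genes were tested. PA raised 15 and lowered 6 of them in siNTC, 16 and 11 in siErk3, and 15 and 10 in siMk5. These were 29.2%, 37.5% and 34.7% of the 72, beside 30.6%, 32.1% and 29.7% of all genes tested, so the counts say nothing particular to the lists. The median of the lists was 0.01, 0.04 and 0.01 on the log2 scale. Among 19 other phospholipases C, myotubularins and PIP enzymes tested, 6, 6 and 5 rose and 1, 2 and 1 fell. Plcxd2, a phospholipase C with the catalytic X domain alone, rose in siNTC from 5.25 ± 0.249 to 35.2 ± 2.52 CPM (SD, n = 3), a log2 fold change of 2.74 (SE 0.11, adjusted p = 1.17e-18). Vac14, the scaffold of the PIKfyve complex, rose in siNTC by 0.70 (SE 0.07, adjusted p = 1.77e-10), and Mtmr10, a myotubularin without activity, by 0.94 (SE 0.07, adjusted p = 1.41e-12). Pip4p1, which removes a phosphate from PIP2 in lysosomes, rose by 0.72 (SE 0.06, adjusted p = 1.14e-11). These 4 were called higher in siErk3 and siMk5 as well.

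Downstream, 8, 9 and 9 of the 29 tested genes of IP3, diacylglycerol and receptor coupling rose with PA, and 2, 4 and 4 fell. In siNTC, Dgkh, a kinase that consumes diacylglycerol, rose from 14.2 ± 0.680 to 38.1 ± 1.67 CPM (SD, n = 3), a log2 fold change of 1.42 (SE 0.07, adjusted p = 3.23e-16). Itpr2, an IP3 receptor, rose from 61.5 ± 2.60 to 117 ± 2.66 CPM, by 0.93 (SE 0.05, adjusted p = 1.45e-15). Prkcd and Prkce, protein kinases C activated by diacylglycerol, rose by 1.13 (SE 0.08, adjusted p = 9.96e-14) and 1.08 (SE 0.09, adjusted p = 1.04e-11). Dgkz, of the same kinase family as Dgkh, fell from 101 ± 1.84 to 69.5 ± 2.86 CPM, at -0.53 (SE 0.05, adjusted p = 7.09e-11). Dgkz was called lower in siErk3 and siMk5 as well. Of 12 tested PI 3-kinase genes, 1 rose in each background and 3, 3 and 4 fell. The regulatory subunit Pik3r3 fell in siNTC from 41.8 ± 2.10 to 17.6 ± 3.48 CPM, a log2 fold change of -1.24 (SE 0.11, adjusted p = 5.26e-11), and Pik3r2 from 109 ± 7.64 to 68.1 ± 3.70 CPM, at -0.69 (SE 0.07, adjusted p = 2.69e-10). Of 12 tested genes of PI synthesis, PI transfer and the PI 4-kinase complex, none was called in siNTC (2 at an unadjusted p under 0.05), and 2 fell in siErk3 (Efr3b and Pitpnc1) and 1 in siMk5 (Pitpnc1). With DESeq2 neither passed in siErk3 (Efr3b adjusted p = 0.0899, Pitpnc1 adjusted p = 0.0718), while Pitpnc1 passed in siMk5.

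The second question was whether silencing Erk3 or Mk5 altered these mRNAs within a medium. In each medium the siErk3 and siMk5 comparisons share the siNTC libraries. With siErk3, 1 of 39 members was called in BSA (0.785% of all genes) and 1 in PA (0.556%), in each case Plcg2. With siMk5 no member was called in BSA (0.0643% of all genes) or in PA (0.547%) by edgeR, nor by DESeq2, and 4 and 3 members had an unadjusted p under 0.05. In BSA, DESeq2 gave no adjusted p for 3 of the 39 with siMk5. By adjusted p alone, 2 members passed with siErk3 in BSA (1.21% of all genes) and 2 in PA (0.854%), each time Plcg2 and Pip4k2b, and 0 with siMk5 in BSA (0.0827%) and in PA (0.776%). The smallest adjusted p with siMk5 was 0.358 for Pip4k2b in BSA and 0.0887 for Inpp4b in PA. The 95% interval of the log2 fold change lay within a 1.3-fold change in both directions for 31 members with siMk5 in BSA, 31 with siMk5 in PA, 31 with siErk3 in BSA and 30 with siErk3 in PA. Where it did not, it was mainly for the low-count genes Pip5k1b, Plcb1, Plcd4, Plce1, Inpp5d and Inpp5j. The median log2 fold change of the 39 was 0.05 and -0.01 with siErk3 in BSA and PA and 0.04 and 0.01 with siMk5, beside 0.02, -0.0037, 0.01 and 0.0019 over all genes.

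**Figure D4:**
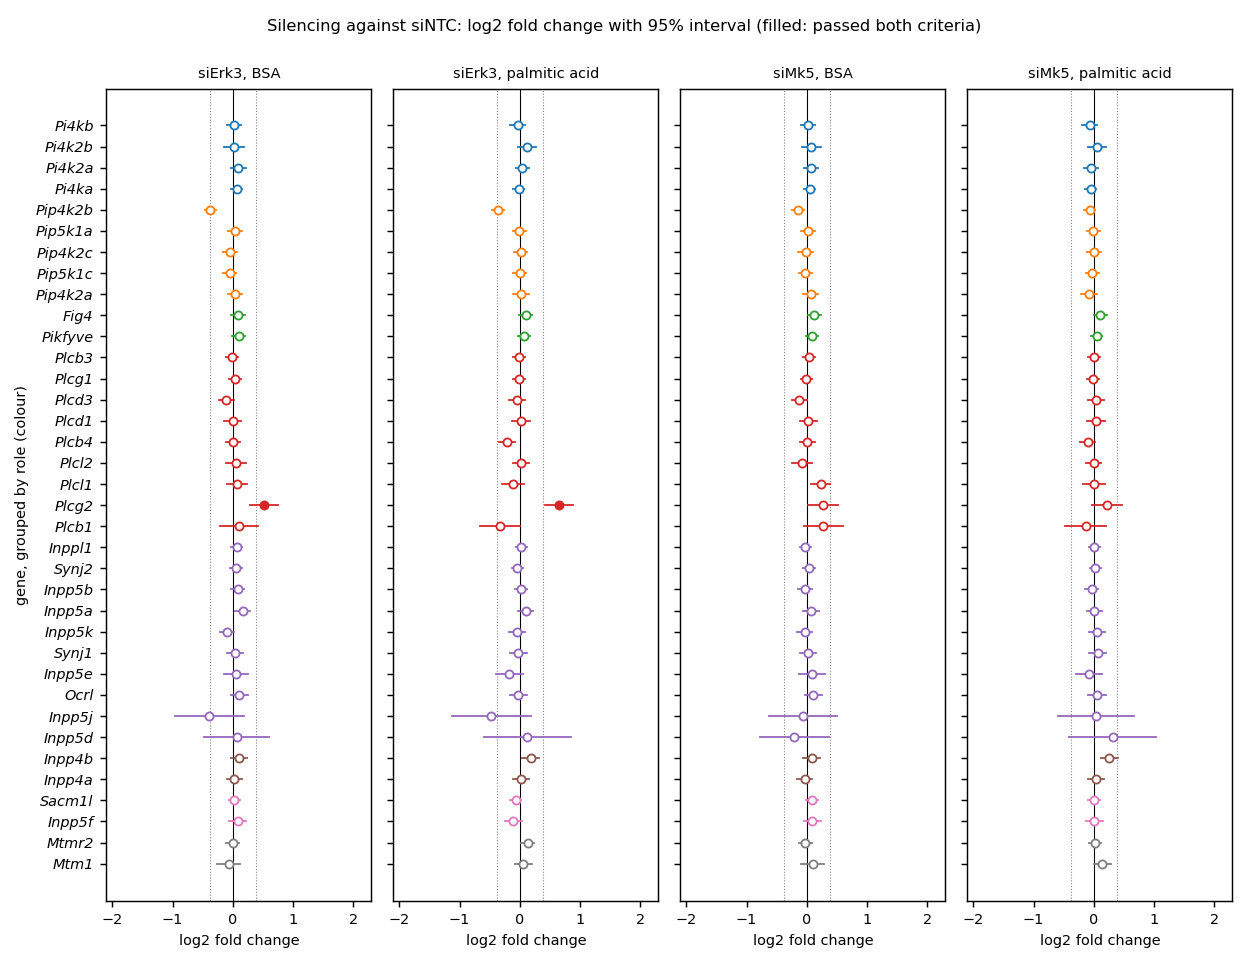
Log2 fold change of siErk3 and siMk5 against siNTC in BSA and in PA (3 libraries against 3) for 36 members, with 95% intervals from the edgeR fit, dotted lines at a 1.3-fold change, and Plcd4, Plce1 and Pip5k1b left out for their low counts. The 1 filled point in each siErk3 panel is Plcg2, at 0.52 and 0.65; no point is filled for siMk5.

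Plcg2 encodes a phospholipase C best known from immune cells and is the sister form of Plcg1. Plcg2 stood at 6.67, 7.25 and 7.75 in siNTC, 9.63, 9.87 and 11.7 in siErk3, and 9.55, 8.71 and 8.05 in siMk5 with BSA. PA libraries held Plcg2 at 7.02, 6.70 and 7.98 in siNTC, 13.5, 10.5 and 9.97 in siErk3, and 9.35, 7.64 and 8.15 in siMk5. Every siErk3 library was higher than every siNTC library of the same medium, and the siMk5 libraries lay between them in BSA and overlapped siNTC in PA. Plcg2 rose with siErk3 by a log2 fold change of 0.52 (SE 0.12, adjusted p = 0.0147) in BSA and 0.65 (SE 0.11, adjusted p = 0.00125) in PA. With siMk5 it was at 0.27 (SE 0.12, adjusted p = 0.667) and 0.22 (SE 0.12, adjusted p = 0.82). The difference between siErk3 and siMk5 passed in PA, at 0.44 (SE 0.11, adjusted p = 0.0381), and not in BSA, at 0.25 (SE 0.11, adjusted p = 0.539). That PA call was lost when only the 6 libraries compared were fitted (0.43, adjusted p = 0.179). It was lost as well without siErk3_Palmitic replicate 1 (0.29, adjusted p = 0.28), siMk5_Palmitic replicate 2 (0.37, adjusted p = 0.243) or siMk5_Palmitic replicate 3 (0.42, adjusted p = 0.166). The siErk3 effect in PA differed from that in BSA by 0.13 (95% interval -0.20 to 0.47). At 95 to 326 counts per library Plcg2 sits near the threshold. In BSA its call was lost without siNTC_BSA replicate 1 (0.48, adjusted p = 0.0881), siNTC_BSA replicate 2 (0.52, adjusted p = 0.0793) or siErk3_BSA replicate 3 (0.43, adjusted p = 0.155). It was also lost in BSA with the 18S share as a covariate (0.48, adjusted p = 0.204), and that share was 1.497% to 2.96% in siErk3_BSA and 2.56% to 7.17% in siNTC_BSA. In PA the call was lost when only the 6 libraries compared were fitted (0.65, adjusted p = 0.0581). Marker sums are again CPM without TMM scaling. The leukocyte markers summed to at most 2.02 CPM in any library, and neither of the 2 tested was called with siErk3. Of the 10 myotube markers, 2 were called higher with siErk3 in BSA and 1 in PA. Their summed level was 14897 to 16436 CPM in siErk3_BSA against 14711 to 15460 CPM in siNTC_BSA, and 12148 to 13480 CPM against 11815 to 12073 CPM with PA. Summed fibroblast markers were at 4943 to 5164 CPM in siErk3_BSA and 4532 to 4686 CPM in siNTC_BSA, with none of the 4 called, and overlapped with PA. No marker of myoblasts, fibroblasts or endothelium was called with siErk3 in either medium. The part of these markers in the Plcg2 result was not tested.

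Pip4k2b, the PIP kinase with the highest level per length, was lower with siErk3 and stopped just short of the fold change limit. Pip4k2b stood at 130.02, 127 and 130.1 in siNTC, 102, 91.6 and 104 in siErk3, and 118, 116 and 115 in siMk5 with BSA. PA libraries held Pip4k2b at 118, 122 and 118 in siNTC, 92.8, 92.9 and 93.3 in siErk3, and 115, 112 and 115 in siMk5. The siErk3 libraries were the lowest in each medium, with no overlap with siNTC or siMk5. Its log2 fold change with siErk3 was -0.38 (SE 0.05, adjusted p = 4.46e-06) in BSA, a 1.299-fold lower level against the limit of 1.3, and -0.36 (SE 0.05, adjusted p = 8.9e-06) in PA. Pip4k2b with siMk5 was at -0.15 (SE 0.05, adjusted p = 0.358) and -0.07 (SE 0.05, adjusted p = 0.89). Between siErk3 and siMk5 it differed by -0.23 (SE 0.05, adjusted p = 0.00456) in BSA and -0.30 (SE 0.05, adjusted p = 6.36e-05) in PA. With the 18S share as a covariate the BSA difference was -0.21 (adjusted p = 0.477). That share was 1.497% to 2.96% in siErk3_BSA and 8.39% to 12.9% in siMk5_BSA. Without siErk3_BSA replicate 2 the BSA difference was -0.16 (adjusted p = 0.115). The adjusted p stayed below 0.05 whichever other library of these groups was left out. With siErk3 against siNTC in BSA, Pip4k2b passed both criteria with DESeq2 (-0.39, adjusted p = 7.24e-15). Pip4k2b is the member with the smallest adjusted p in each comparison of siErk3 with siNTC or siMk5 within a medium.

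**Figure D5:**
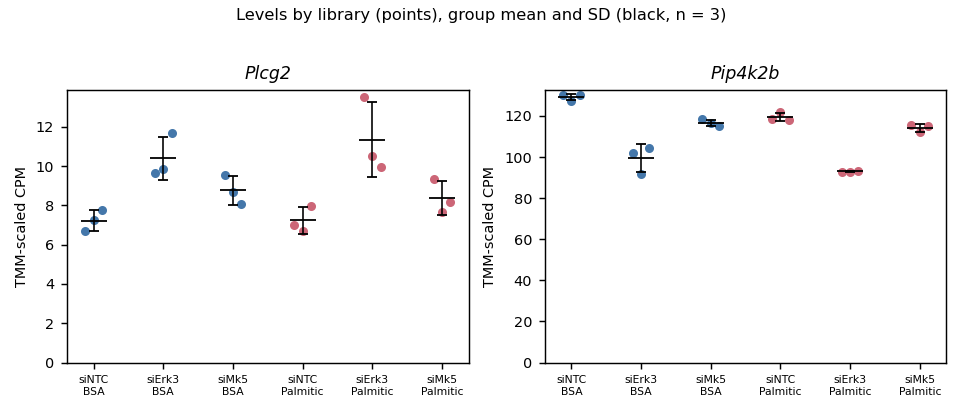
TMM-scaled CPM (axes from 0) of Plcg2 and Pip4k2b in each of the 18 libraries (points, blue for BSA and red for PA), with group means and SD in black (n = 3). The siErk3 groups are the highest for Plcg2, at 9.63 CPM or more, and the lowest for Pip4k2b, at 104 CPM or less.

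No other member was called under silencing. In siMk5, Plcl1 was at 0.23 (SE 0.08, adjusted p = 0.483) in BSA and 0.00 (SE 0.09, adjusted p = 1) in PA, and Fig4 at 0.13 (SE 0.05, adjusted p = 0.66) and 0.11 (SE 0.06, adjusted p = 0.761). Inpp4b was at 0.26 (SE 0.07, adjusted p = 0.0887) with siMk5 and 0.18 (SE 0.07, adjusted p = 0.373) with siErk3 in PA. Plcb4 was at -0.21 (SE 0.06, adjusted p = 0.155) with siErk3 in PA. Plce1 with siMk5 in PA had 4 counts in all against 16 with siNTC, a ratio of 0.253 (exact interval 0.0616 to 0.785, counting error alone), and an adjusted p of 0.588. The groups did not overlap for 8 members with siErk3 in BSA (17.4% of all genes), 8 with siErk3 in PA (12.1%), 8 with siMk5 in BSA (12.3%) and 5 with siMk5 in PA (12%). Directly between siErk3 and siMk5, 0 members were called in BSA with edgeR and with DESeq2 (3 at an unadjusted p under 0.05, against 0.588% of all genes called) and 1, Plcg2, in PA (1.03% of all genes). DESeq2 gave no adjusted p for 3 of the 39 in BSA and 3 in PA. By adjusted p alone the edgeR counts were 1 in BSA (0.818% of all genes) and 2 in PA (1.54%). None of the 72 tested genes of the 4 neighbouring lists was called with siErk3 or siMk5 in either medium (edgeR), where 8 and 1 had an unadjusted p under 0.05 with siErk3 in BSA and PA, and 6 and 5 with siMk5.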

How the data were processed

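Stranded, poly(A)-selected RNA-seq was performed on 18 libraries, 3 for each of 6 groups, and groups and replicate numbers were read from the sample labels. The authors deposited raw counts of read pairs for each gene. The methods name TrimGalore, STAR and Picard (duplicates marked but kept). The file header names featureCounts 2.0.0 with Ensembl 105 on GRCm39, strand setting 2, primary alignments and a mapping quality of at least 3, although the submitters' processing notes give mm10 as the build. Read pairs overlapping exons of several genes on 1 strand were left uncounted. The authors also deposited a log2 table. Each value matched log2(count / f + 1) with 1 scaling factor f for each library (largest relative deviation 7.03e-14), and the table served for nothing else. The table held 0 columns of other samples.

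Genes with at least 10 counts in total (21772 of 55414) were fitted over all 18 libraries with edgeR 4.0.16 (TMM, quasi-likelihood, 1 coefficient per group) in R 4.3.3, and adjusted p-values are Benjamini-Hochberg values over these genes. The criteria, an adjusted p below 0.05 and a fold change above 1.3, were those of the methods, which used DESeq2. Standard errors were the absolute log2 fold change divided by the square root of the quasi-likelihood F statistic. The 95% intervals used these and the t distribution with the degrees of freedom of the test. The procedure was tested on simulated data. Symbols came from GENCODE M39, and exon lengths from the exon coordinates of the count table (Ensembl 105). The printed RefSeq promoters (table build GRCm38.p6) were placed on the GRCm39 genome.

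The members and lists were chosen with earlier results of these data known. Every member is accounted for, members passing in any of the 11 comparisons and the highest per length of each class are given by library, and genes of the 4 lists are named only where they passed, by smallest adjusted p. Fam126a and Fam126b of the lists found no match. Another gene of the lists is not reported here. Alternatives were DESeq2 1.42.0, its size factors, filterByExpr, no filter, the replicate number as a block, the adjusted p alone, only the groups compared, the 18S share as a covariate, and each library left out. Taken over all comparisons, the replicate numbers did not pair the libraries. No 2 libraries of a group agreed within sampling noise (chi-square per degree of freedom 2.93 to 56.2). Protein sequences were not used here.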

Additional observations from a re-analysis of the deposited data

How the results depend on the processing

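None of the 60 calls, counted over members and comparisons, changed direction under the alternatives run. Directions of values that were not called were not compared. With siErk3 against siNTC in BSA, the count of called members (1) was 2 with DESeq2, with DESeq2 size factors, with filterByExpr, with no filter, with the adjusted p alone and with only the groups compared, the second member being Pip4k2b. It was 0 with the 18S share as a covariate, and 0 to 2 when 1 library was left out. In PA it was 2 with the adjusted p alone, 0 with only the groups compared and 1 whichever library was left out. Between siErk3 and siMk5, the adjusted p alone gave 1 member in BSA and 2 in PA, and the PA count was 0 with only the groups compared. That count was 0 to 1 when 1 library was left out, and lost without siErk3_Palmitic replicate 1, siMk5_Palmitic replicate 2 or siMk5_Palmitic replicate 3 (Plcg2 at 0.29, 0.37 and 0.42). For PA against BSA in siMk5 the adjusted p alone gave 29 members in place of 18, and leaving out 1 library gave 16 to 21 in siMk5, 18 to 20 in siNTC and 20 to 25 in siErk3. The cause of these shifts was not tested, except that dropping the fold change limit or libraries changes the criterion or n.

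With the replicate block the counts were unchanged, 1 in siErk3 against siNTC in either medium and 19, 20 and 18 for PA, and 60 of 60 calls were kept. Taken over all comparisons the numbers did not pair the libraries, since 16 of 54 samples correlated best with their own number. Correlations ran from -0.60 to 0.51. By comparison, it was 5 of 6 samples for siMk5 against siNTC in BSA and 4 of 6 for siErk3 against siMk5 in PA. In each other comparison it was 0 to 2 of 6, so pairing in single comparisons is not settled. Of the 60 calls, 60 were kept with DESeq2, 60 with its size factors, 60 with no filter, 59 with filterByExpr (which removed Plce1), 58 with only the groups compared and 55 with the 18S covariate (lost: Plcg2 with siErk3 in BSA, and with PA Plcb1 and Inpp4b in siErk3 and Plce1 and Plcg1 in siMk5). Depth limits Pip5k1b, Plcd4 and Plce1: for Plce1 with siMk5 in PA even a ratio of 0.253 had an adjusted p of 0.588.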
